A study of Mus musculus with 6 samples.

Results

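The genes described here are 40 mouse genes best known for their induction by type I interferon and for their antiviral products. They were chosen by name, in 9 families or groups, and located in a table of read counts through their Ensembl identifiers. That table held 21965 genes, 39 of them on the list. All 39 had enough reads to be tested, and Mx2 was not analysed here. The libraries came from lung interstitial macrophages, the tissue macrophages that lie outside the air spaces, which were isolated with fluorescent antibodies from C57Bl/6 mice aged 6 to 8 weeks and housed free of specific pathogens. In the treated group 3 libraries came from mice that received 1 mg WGP, a β-glucan, into the peritoneum. In the control group 3 libraries came from mice that received phosphate-buffered saline (PBS) by the same route. Treatment is given as lasting 6 days and lungs were collected on day 7. The labels name neither the sort gate nor the number of mice behind a library, and the p-values reflect how much these 6 libraries vary, a variation that could be technical. The comparison of WGP with PBS bears on the study's question of what β-glucan training changes in these macrophages before tumour cells reach the lung.

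Type I interferons, the interferon α genes and interferon β, are secreted cytokines that bind a receptor made of Ifnar1 and Ifnar2. The receptor's kinases Jak1 and Tyk2 phosphorylate transcription factors, Stat2 among them, which join Irf9 in a complex called ISGF3. This complex binds a short DNA motif, the interferon-stimulated response element, before many antiviral genes. In macrophages many of these genes are transcribed at a low tonic level without infection and rise after interferon exposure or virus sensing.

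Total counts ran from 18254678 to 20346517 per library. Levels are given as CPM, the reads of a gene relative to all reads of its library with TMM normalisation, and genes are called higher or lower at an adjusted p under 0.05. The first principal component of log2 CPM, with 64.7% of the variance, separated the treatment groups, while on the second, with 13.8%, WGP replicate 1 stood far from the other WGP libraries. The summed level of Y-linked transcripts was 112 and 179 CPM in PBS replicates 1 and 2, only 9.79 CPM in PBS replicate 3, and 205 to 227 CPM in WGP. The sort label was checked against marker genes. Of 14 interstitial macrophage markers 3 were higher in WGP (Cx3cr1, Csf1r and Fcgr1), 3 were lower (Mertk, Ms4a7 and Apoe) and 8 did not pass. Their median log2 fold change was −0.34. For 7 of the 14 every WGP library lay below every PBS library (24.9% of all genes tested), and for 3 above (23.2%). C1qa, C1qb and C1qc were among those 7 but did not pass (−1.32, −1.30 and −1.42, adjusted p = 0.090, 0.097 and 0.083). The summed level of the 14 was 7959 to 9210 CPM in PBS and 7105 to 8090 CPM in WGP. All 9 classical monocyte markers were higher in WGP, summing to 2265 to 2908 CPM in PBS and 6658 to 8018 CPM in WGP. Alveolar macrophage markers were lower for 13 of 14 genes and summed to 4959 to 7564 CPM in PBS and 1269 to 1606 CPM in WGP. Nonclassical monocyte markers, of which 1 of 9 was higher (Pou2f2), 1 lower (Fabp4) and 7 did not pass, had the largest sum of the lists, 8859 to 10628 CPM in PBS and 8225 to 10239 CPM in WGP. That sum was made up mostly of Nr4a1, Ace and Itgal. In PBS these were at 3333 to 4025, 2092 to 2460 and 1923 to 2254 CPM. In WGP they were at 2984 to 3962, 1566 to 2081 and 1988 to 2273 CPM. Sums over different genes do not compare amounts of cells. No marker of these 4 lists was at 0 in all libraries. In bulk RNA, fewer cells of a type and less RNA per cell cannot be told apart. The part of these markers' cells in the results below was not tested.

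Of the 39 genes 29 were higher in WGP than in PBS and 1, Ifi27, was lower at an adjusted p under 0.05 (edgeR's quasi-likelihood test, Benjamini-Hochberg adjustment over 12305 genes). Among all genes tested 15.2% were higher and 15.7% were lower. The log2 fold change of WGP over PBS was positive for 38 of the 39 genes, with a median of 0.80 and a range from −0.85 to 1.41, whereas the median of all genes tested was −0.02. The changes were moderate in size. Only 4 of the genes, Oas3, Oasl2, Dhx58 and Zbp1, were called and at least 2-fold higher, against 1.32% of all genes tested. For 31 genes every WGP library lay above every PBS library, for Ifi27 every WGP library lay below, and 7 genes overlapped. Over all genes tested the groups did not overlap in 48.1%, with WGP above in 23.2% and below in 24.9%. Together the 39 genes took 0.387% to 0.471% of all counts in the PBS libraries and 0.605% to 0.732% in the WGP libraries.

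**Figure D1:**
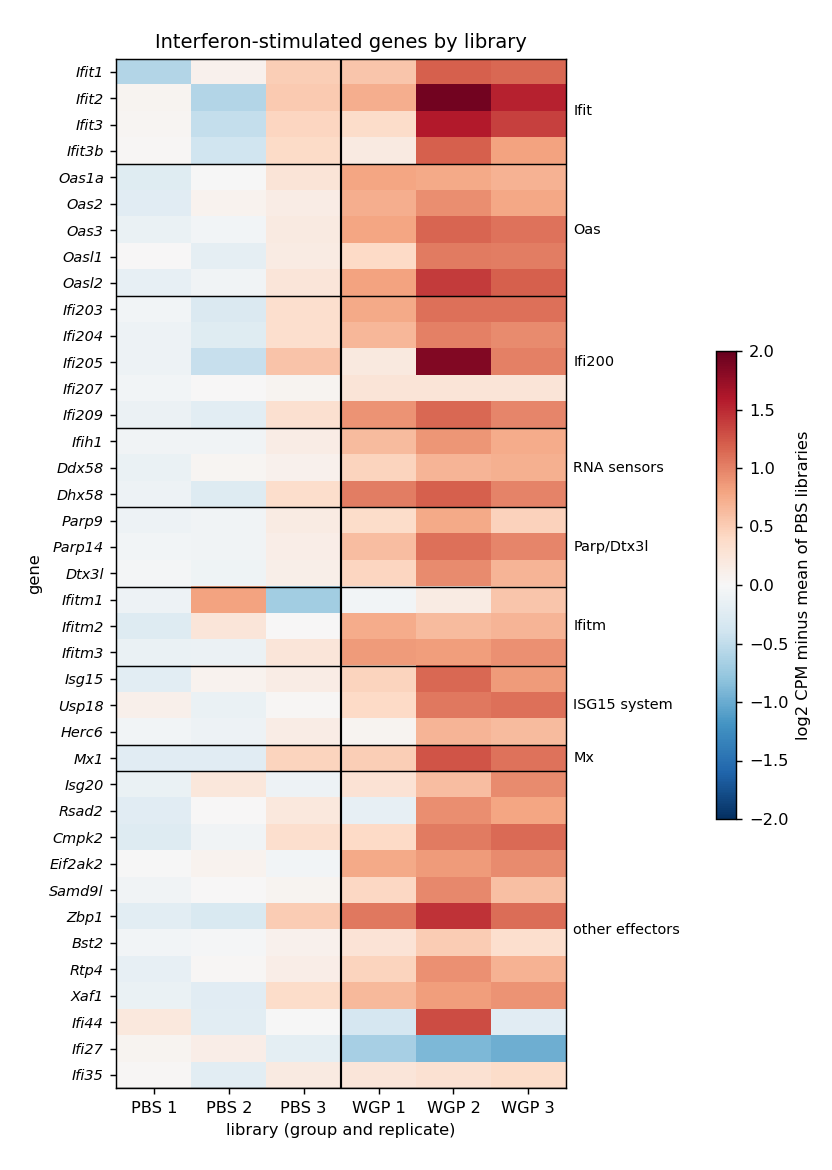
Level of each of the 39 genes in each library, as the log2 CPM minus the mean log2 CPM of the 3 PBS libraries (colour, red higher and blue lower), with genes in rows by family and libraries in columns. Most rows are red in the 3 WGP columns, more strongly in WGP replicates 2 and 3 than in replicate 1, and the Ifi27 row is blue there.

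The sequences just before and after the transcription starts show what the promoters of these genes share. RefSeq windows from 250 bases before to 50 bases after the start (GRCm38.p6) were found for 29 of the 39 genes, and not for Oas2, Ifi204, Dhx58, Parp9, Parp14, Usp18, Mx1, Zbp1, Rtp4 and Ifi27. The core of the interferon-stimulated response element, searched on both strands as GAAA, any 2 bases and GAAA again, occurred in at least 1 window of 16 of these 29 genes (55.2%). It occurred in 3.99% of all 27025 genes with a window and in 3.44% of all 32851 windows. The 16 genes included 12 of the 21 that were higher in WGP (57.1%) and 4 of the 8 others (50%). A match is a description of letters and not a measured binding site. Among the Ifit, Oas and ISG15 genes with a window, Ifit2, Oasl1, Oasl2 and Herc6 held no match. The following stretches hold the matches of the others in these families. Those matches recur or overlap except for the single match of Oas3. The stretches are written 5′ to 3′ on the strand of the gene, with the matches in capitals. They are Ifit1 at chr19:34640775-34640824 (plus strand), Ifit3 at chr19:34583363-34583426 (plus), Ifit3b at chr19:34607759-34607822 (plus), Oas1a at chr5:120907526-120907565 (minus), Oas3 at chr5:120777705-120777754 (minus) and Isg15 at chr4:156200865-156200916 (minus).
Ifit1: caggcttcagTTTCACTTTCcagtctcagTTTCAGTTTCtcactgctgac
Ifit3: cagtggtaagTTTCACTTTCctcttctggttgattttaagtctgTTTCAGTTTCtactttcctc
Ifit3b: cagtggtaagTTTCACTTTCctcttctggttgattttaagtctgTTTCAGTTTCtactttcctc
Oas1a: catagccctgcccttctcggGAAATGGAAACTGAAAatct
Oas3: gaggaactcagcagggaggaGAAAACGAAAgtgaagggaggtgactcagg
Isg15: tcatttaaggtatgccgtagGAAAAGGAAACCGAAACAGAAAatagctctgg
The Ifit matches lie on the opposite strand from the gene and come as a pair, and the stretches of Ifit3 and Ifit3b are identical over all 64 bases. In Oas1a and Isg15 the matches overlap, 2 in Oas1a and 3 in Isg15, so that the motif's repeats run on without a gap.

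In some genes a match lay just after the start. The next stretches belong to the genes with the smallest p-values among the RNA sensors, Ifitm genes and other effectors, each 30 bases long and downstream of the start: Ifitm3 at chr7:141010715-141010744 (minus), Ifih1 at chr2:62646206-62646235 (minus) and Eif2ak2 at chr17:78882535-78882564 (minus).
Ifitm3: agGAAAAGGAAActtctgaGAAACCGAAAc
Ifih1: gagaagagaatcGAAACAGAAAccgatctg
Eif2ak2: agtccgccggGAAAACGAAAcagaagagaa
For contrast, the 60 bases before the start of Ifi209 (chr1:173630799-173630858, plus), the Ifi200 gene with the smallest p-value, hold no match, and none was found in the rest of its window.
Ifi209: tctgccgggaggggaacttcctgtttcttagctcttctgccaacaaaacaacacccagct
Over all windows of the set there were 25 matches, of which 16 lay on the strand of the gene and 9 on the opposite strand, and 19 lay before the start and 6 after it. In 8 genes a window held more than 1 match.

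**Figure D2:**
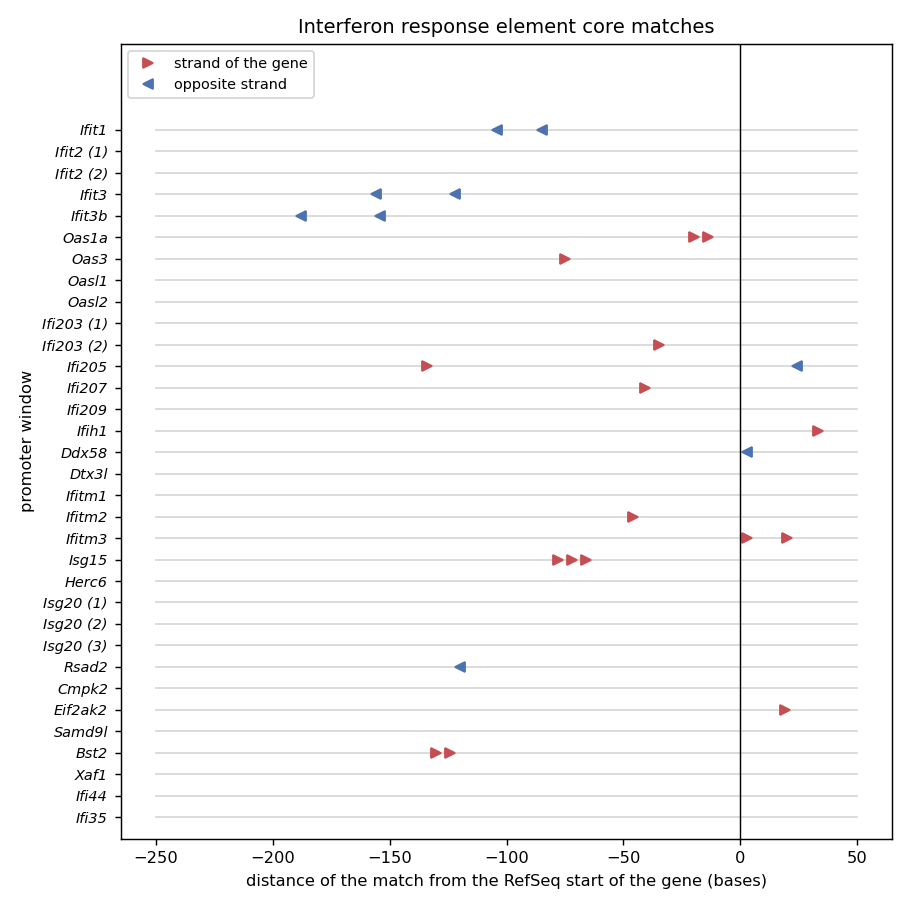
Position of each match to the interferon-stimulated response element core in the RefSeq promoter windows of the 29 genes, as distance in bases from the start (x axis, negative before the start), with red triangles for the strand of the gene and blue for the opposite strand. Matches gather within about the last 200 bases before the start and the first 50 after it, and rows without a triangle hold none.

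The Oas family includes oligoadenylate synthetases, which on binding double-stranded RNA produce a messenger that activates RNase L. All 5 Oas genes were higher in WGP, with a median log2 fold change of 0.85, and in each the groups were separate. Oas3 (ENSMUSG00000032661) was at 146, 155 and 182 CPM in PBS replicates 1, 2 and 3 and at 278, 360 and 339 CPM in WGP replicates 1, 2 and 3. The lowest WGP library thus stood well above the highest PBS library, and Oas3 was 2.02-fold higher (log2 fold change 1.02 ± 0.11 SE, adjusted p = 0.00018). Oasl2, an oligoadenylate synthetase-like gene, was at 169, 179 and 223 CPM in PBS and 330, 497 and 431 CPM in WGP. Its 2.20-fold rise had the largest fold change of the family, again with no overlap (1.14 ± 0.17, adjusted p = 0.0031). The Oas genes lay at 2 places on chromosome 5, the Oasl pair apart from Oas1a, Oas2 and Oas3. Oas1a rose from 60.3 ± 10.7 to 100 ± 3.3 CPM (SD, n = 3 in each group; log2 fold change 0.73 ± 0.12), Oas2 from 157 ± 21.2 to 274 ± 20.1 CPM (0.80 ± 0.10), and Oasl1, which restrains Irf7 translation, from 26.3 ± 3.1 to 47.2 ± 11.2 CPM (0.85 ± 0.18). These 5 genes passed under every one of the 16 alternative settings. Of the Oas1a transcript sequence, cut into 50-base words, 57.6% also occurs in its paralogue Oas1g, so reads may be shared or lost between these genes and the Oas1a level is less certain. Oas1g itself was at 0.71 ± 0.27 (log2 fold change ± SE, adjusted p = 0.079).

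Ifit proteins bind the ends of viral RNA and block its translation. The 4 Ifit genes lie within 99.3 kb of chromosome 19 (34550694 to 34650009, GRCm38), and their median log2 fold change, 1.04, was the highest of the families with more than 1 tested gene, yet only Ifit1 passed. Ifit1 was at 8.79, 14.01 and 18.6 CPM in PBS and 19.4, 30.2 and 29.1 CPM in WGP, a 1.90-fold difference (0.93 ± 0.28, adjusted p = 0.042). Ifit2 was at 30.03, 19.3 and 41.7 CPM in PBS and 47.8, 110 and 83.9 CPM in WGP. It had the largest fold change of the 39 genes and its groups did not overlap, but its spread was wide and it did not pass (1.41 ± 0.44, adjusted p = 0.074). Ifit3 was at 20.3, 14.1 and 26.6 CPM in PBS and 25.4, 59.1 and 50.4 CPM in WGP (1.15 ± 0.39, adjusted p = 0.084). Ifit3b was at 4.71, 3.53 and 6.08 CPM in PBS and 5.28, 10.7 and 8.10 CPM in WGP (0.75 ± 0.31, adjusted p = 0.096). In both of these WGP replicate 1 lay below PBS replicate 3, and in all 4 genes WGP replicate 1 was the lowest WGP library and PBS replicate 3 the highest PBS library. The number of Ifit genes called changed with single libraries and with the processing. Without WGP replicate 1 all 4 passed, with adjusted p-values of 0.0295 for Ifit2, 0.0047 for Ifit3 and 0.031 for Ifit3b. None passed when a PBS library was removed, whether replicate 1 (Ifit1 adjusted p = 0.062) or replicate 2 (0.126), or when WGP replicate 2 (0.104) or 3 (0.117) was. With all libraries kept, none passed under upper quartile scaling (Ifit1 adjusted p = 0.055), library sizes alone (0.053) or no low-count filter (0.062), whereas DESeq2, limma-voom and edgeR without robust estimation each called 3. Ifit3 and Ifit3b share 51.2% and 45% of their 50-base words with another gene, nearly all with each other, so counts may be split or lost between them.

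The Ifi200 genes encode proteins with a domain that binds DNA, several of which take part in DNA sensing. They stand in a cluster on chromosome 1 (173630917 to 174031810), and 4 of the 5 were higher in WGP, with a family median of 0.98. Ifi209 (ENSMUSG00000043263) was at 108, 102 and 147 CPM in PBS and 218, 260 and 230 CPM in WGP. Each WGP library exceeded each PBS library by a clear margin (0.99 ± 0.14, adjusted p = 0.0014). Ifi203 (0.98 ± 0.18) and Ifi204 (0.86 ± 0.16) rose by similar amounts. Ifi207 rose least of the genes that passed, from 380 ± 14.3 to 454 ± 0.81 CPM (0.26 ± 0.06, adjusted p = 0.012), and it no longer passed when PBS replicate 1 was removed (adjusted p = 0.066) or when library sizes alone set the scaling (0.081). Ifi205 was at 15.7, 12.2 and 25.1 CPM in PBS and 19.3, 60.7 and 34.0 CPM in WGP. WGP replicate 1 lay inside the PBS range and WGP replicate 2 far above it, and the difference did not pass (1.10 ± 0.52, adjusted p = 0.18). Of the 50-base words of Ifi209 33.7% occur in another gene, mainly Ifi214, and of those of Ifi204, Ifi205 and Ifi203 20%, 18.6% and 12.2%, so values within this cluster are less certain than most.

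Cytoplasmic RNA sensors recognise viral RNA, and those encoded by Ifih1 and Ddx58 signal through the mitochondrial adaptor Mavs. All 3 genes of this family, Dhx58 included, were higher in WGP without overlap, and the median was 0.75. Ifih1, which encodes MDA5, was at 74.4, 74.5 and 86.9 CPM in PBS and 121, 145 and 131 CPM in WGP. With little spread within groups it gave one of the smaller adjusted p-values of the set (0.75 ± 0.09, adjusted p = 0.00023). Ddx58, which encodes RIG-I, rose from 92.6 ± 7.3 to 142 ± 13.7 CPM (0.62 ± 0.09, adjusted p = 0.00071). Dhx58, which encodes the regulator LGP2, had the largest fold change of the 3, from 56.3 ± 12.98 to 117 ± 9.2 CPM (1.05 ± 0.15, adjusted p = 0.0014). Mavs itself changed in the opposite direction. It was at 90.7, 106 and 73.2 CPM in PBS and 46.2, 50.4 and 43.5 CPM in WGP, lower in every WGP library (−0.94 ± 0.13, adjusted p = 0.00049).

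Parp14, Dtx3l and Parp9, genes of ADP-ribosylation in which Dtx3l is a ubiquitin ligase that pairs with Parp9, are neighbours within 140 kb of chromosome 16 (35832874 to 35972605). All 3 were higher in WGP and none overlapped. Parp14 was at 214, 211 and 242 CPM in PBS and 342, 473 and 435 CPM in WGP, a 1.88-fold rise (0.91 ± 0.12, adjusted p = 0.00047). Dtx3l (0.70 ± 0.12) and Parp9 (0.53 ± 0.11) rose less, and in all 3 the order of the WGP libraries was replicate 2 above replicate 3 above replicate 1. Parp9 and Dtx3l overlap by 458 exonic bases on opposite strands and the strand setting of the counting is not given in the sources used here, so reads there cannot be assigned with certainty. In all, exons of 12 of the 39 genes overlap those of another gene, Dhx58 among them (141 bases, with its antisense gene Dhx58os).

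Ifitm proteins sit in membranes and hinder the fusion of entering viruses. Ifitm3 was at 743.1, 743.5 and 963 CPM in PBS and 1469, 1441 and 1534 CPM in WGP. The WGP libraries lay close together and above all PBS libraries (1.81-fold, 0.86 ± 0.10, adjusted p = 0.0002). Ifitm2 rose from 181 ± 31.5 to 287 ± 10.9 CPM (0.67 ± 0.11, adjusted p = 0.0019), although 48.5% of its 50-base words occur in another gene, chiefly the overlapping model Gm45717. Ifitm1 did not pass. It was at 49.7, 92.5 and 32.7 CPM in PBS and 51.2, 59.5 and 77.8 CPM in WGP, with groups that overlapped (0.11 ± 0.44, adjusted p = 0.88). The summed level of 10 neutrophil markers had the same order of libraries within each group, 1858, 2560 and 1147 CPM in PBS and 1474, 2193 and 2789 CPM in WGP. Of these markers 1 of 10 passed, Mmp8, which was higher, and the part of neutrophil RNA in the Ifitm1 values was not tested. The sign of the Ifitm1 difference was turned without PBS replicate 3 (−0.18), without WGP replicate 3 (−0.07) and with Y-linked transcripts as a covariate (−0.37).

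Isg15 is a ubiquitin-like protein that is coupled to other proteins, Herc6 is the mouse ligase of that coupling, and Usp18 removes it and also restrains the interferon receptor. All 3 were higher in WGP. Usp18 was at 24.4, 20.8 and 23.2 CPM in PBS and 29.97, 47.2 and 48.9 CPM in WGP, with WGP replicate 1 only slightly above PBS (0.88 ± 0.18, adjusted p = 0.0046). Isg15 was at 26.5, 32.1 and 33.9 CPM in PBS and 41.8, 68.3 and 55.1 CPM in WGP, again without overlap (0.84 ± 0.18, adjusted p = 0.0071). Herc6 passed narrowly (0.48 ± 0.16, adjusted p = 0.049) while WGP replicate 1, at 45.4 CPM, lay below PBS replicate 3, at 48.5 CPM. Its call was lost under 11 of 16 alternatives, among them the removal of any library other than WGP replicate 1 (adjusted p from 0.054 without PBS replicate 3 to 0.155 without PBS replicate 1, with 0.151 without PBS replicate 2, 0.13 without WGP replicate 2 and 0.155 without WGP replicate 3). Herc6 shares 1269 exonic bases with the model Gm45193. Of the other genes of ISG15 coupling, the activating enzyme Uba7 (0.70 ± 0.10, adjusted p = 0.0005) and the conjugating enzyme Ube2l6 (0.72 ± 0.15, adjusted p = 0.0052) were higher, and the ligase Trim25 did not pass (0.37 ± 0.18, adjusted p = 0.18; 0.0081 without WGP replicate 2).

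Mx1 encodes a dynamin-like GTPase that blocks influenza and related viruses. It was at 43.2, 43.3 and 69.2 CPM in PBS and 70.8, 121 and 107 CPM in WGP. The lowest WGP library was barely above PBS replicate 3, and Mx1 did not pass (0.94 ± 0.29, adjusted p = 0.060). It passed without PBS replicate 3 (adjusted p = 0.020), without WGP replicate 1 (0.013), in a fit blocked by replicate number (0.020) and by DESeq2 (6.85e-05). C57Bl/6 mice are known to carry a defective Mx1 allele, and these counts measure its transcript only.

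The remaining 12 genes are effectors of several kinds, of which 8 were higher, 1 lower and 3 did not pass. Eif2ak2, the kinase PKR that halts translation on double-stranded RNA, was at 49.4, 51.9 and 47.6 CPM in PBS and 83.5, 89.8 and 95.2 CPM in WGP. The groups were far apart relative to their spread, and it had the smallest adjusted p of the 39 genes (0.85 ± 0.08, adjusted p = 7.2e-05). Zbp1, a sensor of Z-form nucleic acid that can trigger cell death, was at 108, 101 and 178 CPM in PBS and 259, 338 and 270 CPM in WGP. All WGP libraries were above PBS replicate 3, the highest control (1.17 ± 0.26, adjusted p = 0.024). Zbp1 no longer passed with PBS replicate 1 (adjusted p = 0.079) or 2 (0.058) removed, or with WGP replicate 2 (0.057) or 3 (0.054) removed, nor without a low-count filter (0.052). Samd9l, a restriction factor of poxviruses, rose by 0.68 ± 0.13, Xaf1, a pro-apoptotic factor, by 0.77 ± 0.15, and Rtp4, a receptor-transporting protein, by 0.69 ± 0.12 on the log2 scale.

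Bst2, or tetherin, which holds budding virions at the cell surface, rose by a small amount (0.38 ± 0.09, adjusted p = 0.0094; 0.052 without PBS replicate 1). The exonuclease Isg20 was higher (0.63 ± 0.17, adjusted p = 0.017), but not with PBS replicate 1 (0.075) or 3 (0.057), or WGP replicate 3 (0.071), removed, nor with the Y-linked covariate (0.106). Cmpk2, a mitochondrial nucleotide kinase next to Rsad2, was higher too (0.86 ± 0.23, adjusted p = 0.031), but not with PBS replicate 1 (0.093) or 2 (0.11), or WGP replicate 2 (0.084) or 3 (0.080), removed, nor without a low-count filter (0.064). Without PBS replicate 1, 4 of the 12 effectors were called higher, and without WGP replicate 3, 5. The number higher over all genes fell as well under these removals. It was 1874 of 12305 with all libraries, 1202 of 12487 without PBS replicate 1 and 1407 of 12680 without WGP replicate 3. Rsad2, or viperin, which makes a chain-terminating nucleotide, was at 49.6, 58.1 and 66.9 CPM in PBS and 51.5, 111 and 100 CPM in WGP. WGP replicates 2 and 3 were high and replicate 1 lay among the controls (0.59 ± 0.32, adjusted p = 0.23), and without that library Rsad2 passed (0.86, adjusted p = 0.00077). Ifi35 was at 57.5, 49.0 and 64.5 CPM in PBS and 67.3, 70.1 and 72.8 CPM in WGP, separate but close (0.30 ± 0.10, adjusted p = 0.052; 0.018 without PBS replicate 3). Ifi44 was nearly silent, at 2.38, 1.76 and 2.04 CPM in PBS and 1.63, 5.07 and 1.75 CPM in WGP, or 29 to 96 reads per library. Only WGP replicate 2 stood out (0.45 ± 0.51, adjusted p = 0.54), and without it the sign turned (−0.29).

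Ifi27 was the exception in direction. It was at 29.3, 31.2 and 24.8 CPM in PBS and 17.8, 15.3 and 14.3 CPM in WGP. Every WGP library was below every PBS library, and Ifi27, an interferon-inducible protein of mitochondrial and nuclear membranes, was 1.80-fold lower (−0.85 ± 0.14, adjusted p = 0.0014), under all 16 alternatives as well. Its relative Ifi27l2a went the other way, from 136 to 184 CPM over the PBS libraries to 304 to 332 CPM over the WGP libraries (1.01 ± 0.10, adjusted p = 9.8e-05). Markers of endothelial cells, of which 6 of 7 were lower, summed to 302 to 324 CPM in PBS and 95.9 to 113 CPM in WGP. Epithelial markers, of which 7 of 8 tested were lower, summed to 276 to 582 CPM in PBS and 18.5 to 64.6 CPM in WGP. Whether these cells contributed to the Ifi27 values was not tested.

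**Figure D3:**
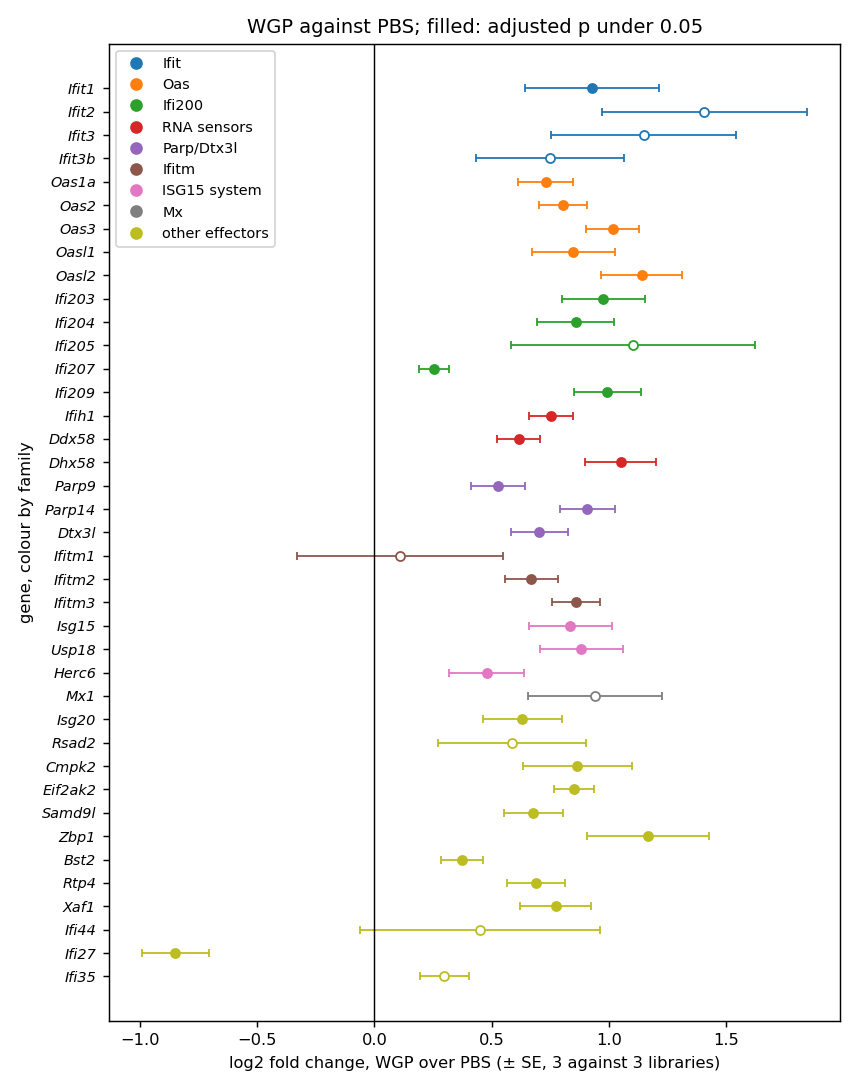
Log2 fold change of WGP over PBS for each of the 39 genes (x axis, points, with bars of 1 SE from 3 against 3 libraries), coloured by family, with filled points for adjusted p under 0.05. All points but Ifi27 lie right of 0, and the open points, such as Ifit2, Ifi205 and Ifitm1, mostly have the longest bars.

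The library order was shared across most families but not by the Ifitm genes. Of these 3 genes PBS replicate 2 was the highest PBS library for 2, and WGP replicate 2 the lowest WGP library for 2. PBS replicate 3 was the highest PBS library for 32 of the 39 genes (82.1%), against 34.7% of all genes tested. WGP replicate 1 was the lowest WGP library for 33 of the 39 (84.6%), against 37.3% of all genes. WGP replicate 2 was the highest WGP library for 26 (66.7%), against 34.5%. The median log2 difference from the PBS mean over the 39 genes was −0.10, −0.07 and 0.17 in PBS replicates 1, 2 and 3 and 0.44, 0.96 and 0.90 in WGP replicates 1, 2 and 3. Relative to all PBS libraries, 31 of the genes were above in WGP replicate 1, 37 in WGP replicate 2 and 36 in WGP replicate 3, where about 36% of all genes tested were above in each (36%, 35.1% and 36.1%). Without WGP replicate 1 the number higher was 34 of 39 (12.8% of all genes), and without PBS replicate 3 it was 29 (13.9%). With Y-linked transcripts as a covariate it was 29 (12.7%). The classical monocyte marker sum was highest in PBS replicate 3 among the PBS libraries (2908 CPM). Among the WGP libraries it was highest in replicate 1 (8018 CPM, against 6658 and 6826), where 7 of the 9 markers were highest and 2 lowest. The part of monocyte RNA in the order of the libraries was not tested. T and NK cell markers, at 43.9, 31.9 and 49.2 CPM in PBS and 11.6, 52.3 and 41.3 CPM in WGP, had the same highest PBS library and the same lowest and highest WGP libraries as most of the 39 genes. So had B cell markers, at 52.1, 45.5 and 70.1 CPM in PBS and 26.6, 72.8 and 49.9 CPM in WGP. No gene of these lists passed (7 and 5 tested), and their part in the order of the libraries was not tested. The median coefficient of variation of the 39 genes was 14.9% in PBS and 16.2% in WGP, against 11.0% and 11.9% for all genes.

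**Figure D4:**
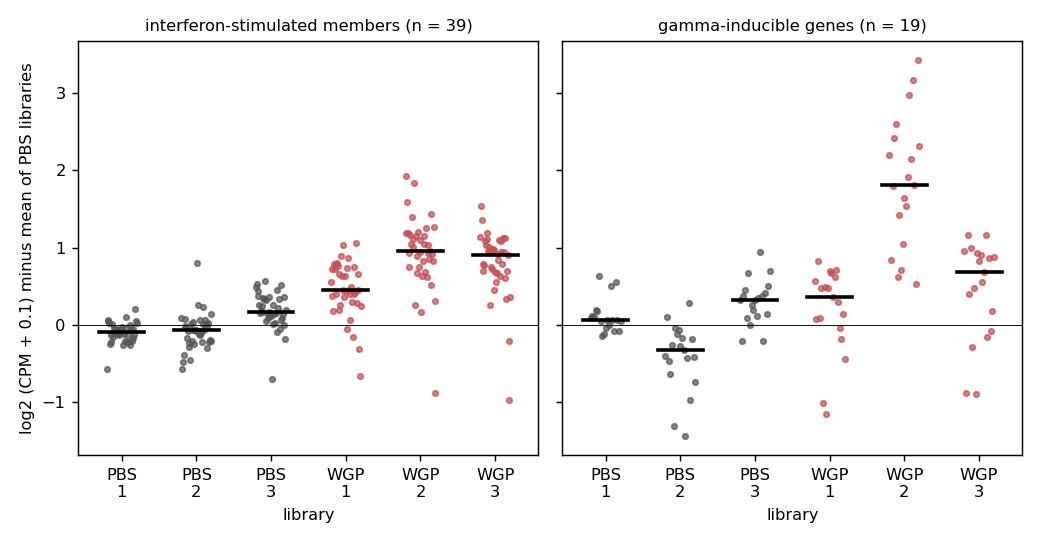
Log2 (CPM + 0.1) minus the mean of the PBS libraries for each gene (points) in each library, with the median as a bar, for the 39 interferon-stimulated genes (left) and 19 genes known for induction by interferon γ (right). The left panel is raised in all 3 WGP libraries and least in replicate 1, and the right panel is raised most in WGP replicate 2.

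Among genes known mainly for induction by interferon γ, WGP replicate 2 stood apart from the other WGP libraries. Of 16 interferon-inducible GTPases of the Gbp and Irg families 2 were higher, Gbp9 (0.83 ± 0.15, adjusted p = 0.0050) and Irgm2 (1.08 ± 0.23, adjusted p = 0.013), and 14 did not pass, although the median was 1.10. Irgm2 no longer passed with any PBS library removed (adjusted p = 0.059, 0.061 and 0.054 for replicates 1, 2 and 3), nor with the Y-linked covariate (0.057). Irgm1 (1.10 ± 0.32, adjusted p = 0.060) passed without WGP replicate 1 (0.047) or WGP replicate 2 (0.012), and Gbp3 (1.28 ± 0.35, adjusted p = 0.052) without WGP replicate 1 (0.036). WGP replicate 2 was the highest WGP library for all 16, and the list's median log2 difference from the PBS mean was 0.47, 1.80 and 0.76 in WGP replicates 1, 2 and 3. The chemokine gene Cxcl9 was at 14.1, 139 and 14.6 CPM and Cxcl10 at 10.6, 71.8 and 26.5 CPM in WGP replicates 1, 2 and 3. Neither passed (adjusted p = 0.26 and 0.35), nor did the class II regulator Ciita (0.12 ± 0.21, adjusted p = 0.72; −0.14 without WGP replicate 2). For the 39 antiviral genes the medians of WGP replicates 2 and 3 were 0.96 and 0.90, with replicate 2 the highest WGP library for 26 genes and replicate 3 for 9.

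Transcripts of the interferons were scarce. Of 21 ligand genes of types I, II and III only Ifng had enough reads to be tested, with 41, 15 and 23 reads in PBS and 9, 130 and 8 in WGP (1.01 ± 1.06, adjusted p = 0.51). Its sign turned without WGP replicate 2 (−1.44). Ifnb1 had 3, 8 and 2 reads in PBS and 0 in each WGP library, where a count of 0 allows up to 3 reads. Ifnz had 4 reads in WGP replicate 2 and none elsewhere, and the other 18 ligand genes, among them all listed interferon α genes, had none in any library. Ifnb1 had too few reads for the test. Markers of plasmacytoid dendritic cells, a main producer of interferon α, summed to 126 to 150 CPM in PBS and 131 to 143 CPM in WGP, a sum made up mostly of Tcf4 (82.5 to 94.9 CPM in PBS and 104 to 131 CPM in WGP, higher). Of the 7 markers tested 3 were lower, Siglech (−1.63 ± 0.41), Ccr9 (−2.89 ± 0.74) and Cd209d (−1.41 ± 0.37), and the median log2 fold change was −0.88. Their part in the results was not tested.

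Among genes of the receptor and of ISGF3, 4 were higher: Tyk2 (0.63 ± 0.07, adjusted p = 0.00016), Irf9 (0.53 ± 0.08, adjusted p = 0.0011), Ifnar2 (0.42 ± 0.08, adjusted p = 0.0024) and Stat2 (0.87 ± 0.15, adjusted p = 0.0041). Ifnar1 (0.15 ± 0.07, adjusted p = 0.12) and Jak1 (0.10 ± 0.07, adjusted p = 0.30) did not pass. Of 7 interferon regulatory factors 3 were higher, Irf8 (1.03 ± 0.14, adjusted p = 0.0014), Irf5 (0.50 ± 0.09, adjusted p = 0.0026) and Irf7 (0.90 ± 0.17, adjusted p = 0.0090), the last the factor that amplifies interferon α transcription. Irf1 did not pass in edgeR's test (0.85 ± 0.30, adjusted p = 0.098) but did by DESeq2 (0.036).

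Among 14 genes of nucleic-acid sensing and its adaptors 7 were higher, 1 was lower and 6 did not pass. The smallest p-values were those of Unc93b1, the chaperone of endosomal Toll-like receptors (0.69 ± 0.08, adjusted p = 0.00012), the kinase Ikbke (1.61 ± 0.15, adjusted p = 0.00012), Mavs, given above, and the RNA receptor Tlr7 (0.50 ± 0.08, adjusted p = 0.0012). Of 6 genes that restrain the pathway, 2 phosphatase genes were higher, Ptpn6 (0.51 ± 0.09, adjusted p = 0.0014) and Ptpn11 (0.27 ± 0.08, adjusted p = 0.025). Ptpn11 no longer passed with PBS replicate 1 (0.096) or 2 (0.078), or WGP replicate 3 (0.10), removed, nor under upper quartile scaling (0.068) or library sizes alone (0.12). Socs3 (−0.32 ± 0.21, adjusted p = 0.31) and Socs1 (0.19 ± 0.44, adjusted p = 0.78) did not pass. Without WGP replicate 2 Socs3 passed as lower (−0.59, adjusted p = 0.0019), and Socs1 turned sign (−0.37).

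Relatives of the families that are not on the list, with some other interferon-inducible genes, were counted for comparison. Of 22 with enough reads 10 were higher and 1 was lower, against 15.2% and 15.7% of all genes tested. Some of the 22 are GTPases of the Gbp family already counted above, which did not pass. Ifitm6 was at 98.5, 113 and 132 CPM in PBS and 341, 285 and 360 CPM in WGP, a larger fold change than that of any of the 39 genes, in a comparison that was not tested (1.52 ± 0.12, adjusted p = 5.3e-05). Among other Ifi200 genes, Mndal (0.91 ± 0.15, adjusted p = 0.0025), Aim2 (0.52 ± 0.10, adjusted p = 0.0028), Ifi211 (1.30 ± 0.27, adjusted p = 0.016; 0.067 without PBS replicate 1) and Ifi208 (1.15 ± 0.33, adjusted p = 0.029) were higher. Ifi208 no longer passed with PBS replicate 1 (0.119) or 2 (0.116), or WGP replicate 2 (0.053) or 3 (0.066), removed. The RNA-editing enzyme Adar (0.62 ± 0.09, adjusted p = 0.0005), Parp10 (0.59 ± 0.10, adjusted p = 0.0014) and Parp11 (0.77 ± 0.15, adjusted p = 0.0028) were higher too, as was Parp12. Ifitm10, at 1.60 to 2.65 CPM in PBS and 0.22 to 0.79 CPM in WGP, was lower (−2.04 ± 0.64, adjusted p = 0.032), and it lost this call when any library other than WGP replicate 2 was left out (adjusted p from 0.063 to 0.117), under the replicate block (0.057) and with the Y-linked covariate (0.101). Ifit1bl1 (1.52 ± 0.52, adjusted p = 0.076) passed without WGP replicate 1 (0.0018).

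Compared per length, as CPM per kb of exon, the levels of the 39 genes spanned a wide range. Ifitm3 had the highest, 1204 CPM per kb in PBS and 2185 in WGP, above 99.9% of all genes tested in PBS. Ifitm2 followed, with 276 and 439, and Ifi207 with 111 and 133. Isg15 (40.8 and 72.8), Zbp1 (36.5 and 81.9), Oas2 (35.2 and 61.5) and Ifi209 (33.5 and 66.6) ranked 7 to 10 in PBS, and the median of all genes tested in PBS was 5.29. At the low end Ifit1 (5.19 and 9.88), Herc6 (4.70 and 6.55), Ifi205 (4.24 and 9.10), Ifit3b (2.39 and 4.02) and Ifi44 (0.34 and 0.46) were below that median in PBS. The rank of Ifi27 among the 39 genes went from 18 in PBS to 34 in WGP, and that of Ifit2 from 34 to 25. Neighbours in this order often lie within each other's spread between libraries, as the points of the plot of levels show.

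**Figure D5:**
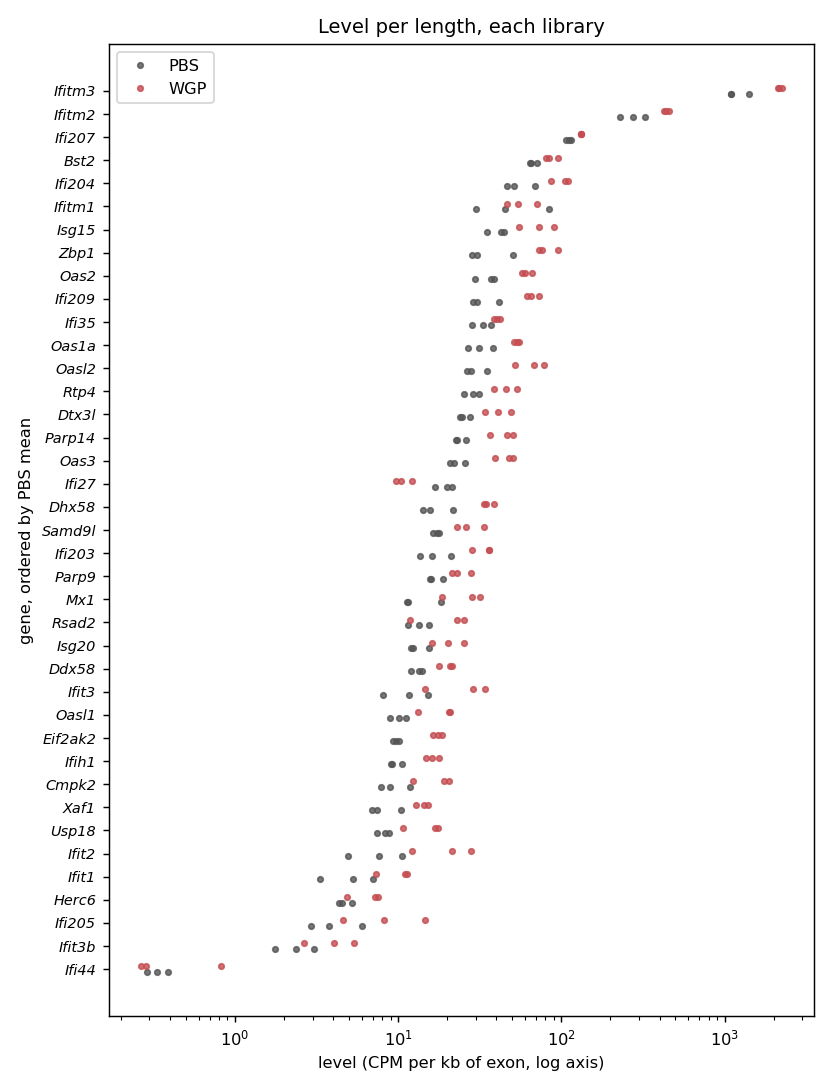
Level of each of the 39 genes per length in each library (x axis, CPM per kb of exon, log axis), with grey points for PBS and red points for WGP, ordered by the PBS mean. Ifitm3 and Ifitm2 stand above the rest, Ifi44 lies lowest, and only in Ifi27 are all red points left of the grey ones.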

How the data were processed

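Gene counts of 6 polyA-selected libraries (NuGEN Universal Plus mRNA-Seq, per the labels) were analysed as the authors deposited them. Per the submitters' processing notes HTSeq 0.10.0, FastQC 0.10.1 and the builds GRCm38 and mm10 belong to this processing. Aligner, annotation and strandedness of the counting: not given in the sources used here. GENCODE M21 matched 21939 of 21965 identifiers (99.9%) and gave symbols, positions and exonic lengths. Library totals were 18254678 to 20346517 counts.

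The comparison of WGP and PBS used R 4.3.3 with edgeR 4.0.16 (TMM scaling after filterByExpr, robust glmQLFit, two-sided quasi-likelihood F test, Benjamini-Hochberg over 12305 genes, threshold 0.05). The test was also run on simulated data. The SE is the log2 fold change divided by the square root of F. No exact test of 3 against 3 can give p below 0.1. Libraries of a group differed by more than sampling noise (chi-square per degree of freedom 14 to 26). Alternatives were other scalings, filters, DESeq2 1.42.0, limma-voom (limma 3.58.1), a replicate block, a Y-linked covariate and leaving out each library.

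The genes and lists were chosen with earlier results of these data known. Per-library values are given for the gene with the smallest p in each family, genes that did not pass in families where others did, and the 5 largest fold changes; other lists by counts and up to 4 smallest p-values. Ifi27, Isg15, Ifnar1, Jak1, Mavs, Parp12, the markers Cx3cr1, Csf1r, Fcgr1, Mertk, Ms4a7, Apoe, C1qa, C1qb, C1qc, Pou2f2, Fabp4, Nr4a1, Ace, Itgal, Tcf4, Siglech, Ccr9, Cd209d and Mmp8, and per-library values beyond this rule were also given after their values were seen. Shared sequence is the share of a gene's 50-base transcript words that occur in another gene. Some results of the lists are not reported here.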

Additional observations from a re-analysis of the deposited data

How the results depend on the processing

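The number of the 39 genes called higher was 26 to 32 under the 10 alternatives that kept all libraries and 22 to 34 when a library was left out (22 without PBS replicate 1, 34 without WGP replicate 1). Ifi27 was the only gene called lower in each. The median log2 fold change was 0.70 to 0.92 over the alternatives. Of the 30 genes called, 23 kept their call under all 16 alternatives, and 6 of the 9 others passed under at least 1.

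Over all genes, library sizes alone gave 1236 genes higher and 2460 lower in place of 1874 and 1935, and shifted the median log2 fold change by −0.10. Leaving out a library gave 1202 to 1753 genes higher and 1289 to 1964 lower, with the lowest counts without PBS replicate 1 (1202 and 1289). The cause was not tested. Signs turned, always without a call, for Ifitm1 (−0.37 with the Y-linked covariate, and −0.18 to 0.60 when a library was left out, negative without PBS replicate 3 and, at −0.07, without WGP replicate 3) and Ifng (−0.12 with the replicate block, −0.00073 by limma-voom, and −1.44 to 1.52 when a library was left out). They also turned without WGP replicate 2 for Ifi44 (−0.29 to 0.73 over the libraries left out), Socs1 (−0.37 to 0.44) and Ciita (−0.14 to 0.25).

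Deviations of same-numbered libraries did not correlate (r = −0.0633, −0.0811 and −0.0458). This gave no sign that the numbers pair libraries, but with 3 libraries in each group it cannot exclude pairing. With the replicate block 30 of the 39 genes were higher, and over all genes 1584 were higher and 1601 lower. Depth limits Ifi44 and the ligand genes, which had few reads.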
